A study of Rattus norvegicus with 8 samples.

Results

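Glycolysis and glucose uptake in the rat retina were followed through 10 genes, Slc2a1, Hk1, Hk2, Gpi, Pfkl, Aldoa, Gapdh, Pgk1, Eno1 and Ldha. They were chosen by name, as the spots that are not controls and whose gene name is one of these, among 26334 gene names on the array. All 10 were on the array, with 15 probes and 24 spots, and all 10 passed the filter on dim and flagged spots with 22 spots. RNA came from 8 retinas of female Lister Hooded rats aged 8 weeks. In the 4 ONC retinas the right optic nerve had been crushed with forceps, and the 4 CTR retinas came from rats with sham surgery, in which the forceps were not closed. Retinas were collected 2 weeks after surgery, and each was profiled singly, as 1 channel of a two-color Agilent array (4 arrays on 1 slide). The crush injures the axons of retinal ganglion cells (RGCs), a small share of the cells in a whole retina, so a bulk level mixes all retinal cell types.

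By the labels, CTR and ONC retinas of the same number shared an array, with Cy5 on the CTR side and Cy3 on the ONC side throughout, and dye and condition therefore cannot be told apart. The methods put retinas of the same group on an array instead, and both sources give the same dye only to CTR2, CTR4, ONC1 and ONC3. The RGC markers (9 of 13 measured) go against the labels: the median of their log2 levels, centered for each gene on its 8-channel mean, was -1.60, 1.18, -1.27 and -1.001 in the channels labeled CTR1 to CTR4 and 1.33, 1.32, 1.37 and -1.19 in those labeled ONC1 to ONC4. It was high in CTR2 and in 3 ONC channels and low in the other CTR channels and ONC4, whereas nerve crush is known to kill RGCs. Tubb3, the one with the brightest spots, was at 1.02, 1.80, 1.17 and 1.80 in CTR1 to CTR4 and at 2.84, 2.43, 2.92 and 2.24 in ONC1 to ONC4. Pou4f1, Pou4f3, Isl2 and Nrn1 were not measured. Every direction given here for ONC against CTR is therefore one between labels, no channel was moved to another group, and CTR and ONC stand for channels so labeled.

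Glucose enters cells through the transporter encoded by Slc2a1 (GLUT1) and is trapped as glucose 6-phosphate by the hexokinases. Glucose-6-phosphate isomerase, phosphofructokinase and aldolase then turn it into triose phosphates, which glyceraldehyde-3-phosphate dehydrogenase, phosphoglycerate kinase and enolase pass on towards pyruvate, and lactate dehydrogenase A makes lactate. The retina is known for making much lactate from glucose even when oxygen is present, with photoreceptors as the main consumers and Müller cells and RGCs taking part in the exchange of glucose and lactate. Several of these genes are targets of the hypoxia-inducible factors, which bind DNA through a core motif.

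The probes are 60-mers, and their sequences bear on what the values can mean, since other entries on the array are described by the enzyme names of Gapdh (72 entries), Ldha (5), Aldoa (4), Eno1 (2) and Pgk1 (1). The records of 13 of the 15 probes were found under the same symbol in the RefSeq gene table (GRCr8). The records of the other 2, both named Eno1 in the files, were not in that table. All coordinates of probes are those of the files (rn4), which do not say whether a probe lies in coding sequence or a UTR. The 3 probes named Eno1 were placed at chr3:55202969-55203028 (+), chr10:53300221-53300280 (-) and chr5:167405206-167405265 (+), while RefSeq has Eno1 on chromosome 5. The last 30 bases of each are given because these probes differed most among probes of 1 gene, with a run of A at the end in capitals.
A_64_P039081, placed on chromosome 3: aaataaaagctgcagaagcccatgAAAAAA
A_64_P067525, placed on chromosome 10: agaagtacaggaaagacgccaccaatgtgg
A_64_P093037, placed on chromosome 5: ctaccagatcctctgtctctgtcatccagg

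The 3 Gapdh probes lie on the minus strand of chromosome 4, at chr4:161282310-161282369, chr4:161282433-161282601 and chr4:161282760-161282907. The last 2 span 169 and 148 bases of the genome with 60 bases of probe. A run of at least 16 identical bases was shared with 39 other probes by A_64_P052510, with 26 by A_64_P232432 and with 3 by A_64_P003046. Each of the first 2 is shown whole, followed by 1 of the 2 other probes with the most bases in common, whose differing bases are in capitals.
A_64_P052510 (Gapdh): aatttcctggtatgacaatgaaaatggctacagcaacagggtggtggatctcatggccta
A_64_P003045 (entry similar to Gapdh): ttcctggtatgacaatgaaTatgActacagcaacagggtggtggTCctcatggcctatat
A_64_P232432 (Gapdh): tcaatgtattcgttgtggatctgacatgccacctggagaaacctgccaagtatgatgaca
A_64_P050158 (entry without a gene name): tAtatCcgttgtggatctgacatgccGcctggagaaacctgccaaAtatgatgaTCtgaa

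The Ldha probe (chr1:97412370-97412429, +) overlaps the probe of the entry RGD1562690, described in the files as similar to Ldha, over 59 bases, 48 of them the same, with a longest shared run of 44. The last 30 bases of this overlap, the same in both, are given because the probes share them.
A_64_P016403 (Ldha) and A_64_P148966 (RGD1562690): cataaatgttctacaggatattttctgtat
The Hk2 probe (chr4:116925790-116925849, -) shared such runs with 5 other probes, as well as with 5 on the opposite strand. The Eno1 probe A_64_P067525 shared a run of 19 bases with 1 other probe, A_44_P398462, which has no gene name and had a log2 difference (ONC minus CTR) of -0.58 (adjusted p = 0.0951, with the block 0.0336, limma over all probes), while the other Eno1 probes shared none. No other probe shared one with those of Slc2a1 (chr5:139718779-139718838, +), Hk1 (without a position in the files), Gpi (chr1:86659123-86659182, -), Pfkl (chr20:11032161-11032220 and chr20:11032281-11032340, +), Aldoa (chr1:185972062-185972121, -) or Pgk1 (chrX:94340131-94340190, +).

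Taken over the 10 genes, limma called none between ONC and CTR at an adjusted p under 0.05 (Benjamini-Hochberg over 16307 genes). In the same test 81 genes were called, 38 higher and 43 lower in ONC, which is 0.497% of all genes (38 without ONC2, and 0 without any other single channel). At an unadjusted p under 0.05 there were 4 of the 10 genes (Pfkl, Aldoa, Eno1 and Ldha), beside 18.6% of all genes. With the array as a block, limma called 2 of the 10, Pfkl (higher) and Eno1 (lower), beside 1254 genes or 7.69% of all. The levels of 2 genes, Eno1 and Ldha, did not overlap between the groups, against 12.7% of all genes. The log2 difference (ONC minus CTR) was above 0 for 4 genes and below 0 for 6, with a median of -0.033, beside -0.013 over all genes. In the 4 channels to which labels and methods give the same dye, 7 of the 10 differences were above 0 and the median was 0.12. Both sources give Cy5 to CTR2 and CTR4 and Cy3 to ONC1 and ONC3, so dye and condition coincide there too. The RGC markers were high in CTR2 (1.18) and low in CTR4 (-1.001). Over all genes, 8310 of 16307 were above 0 in these channels, with a median of 0.0059. Slc2a1 (0.35), Hk2 (0.21), Gpi (0.49) and Pfkl (1.02) were further above 0 there, and Aldoa (-0.18), Eno1 (-0.27) and Ldha (-0.31) were closer to 0. Fewer cells of a type and less RNA per cell cannot be told apart in whole retinas.

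**Figure D1:**
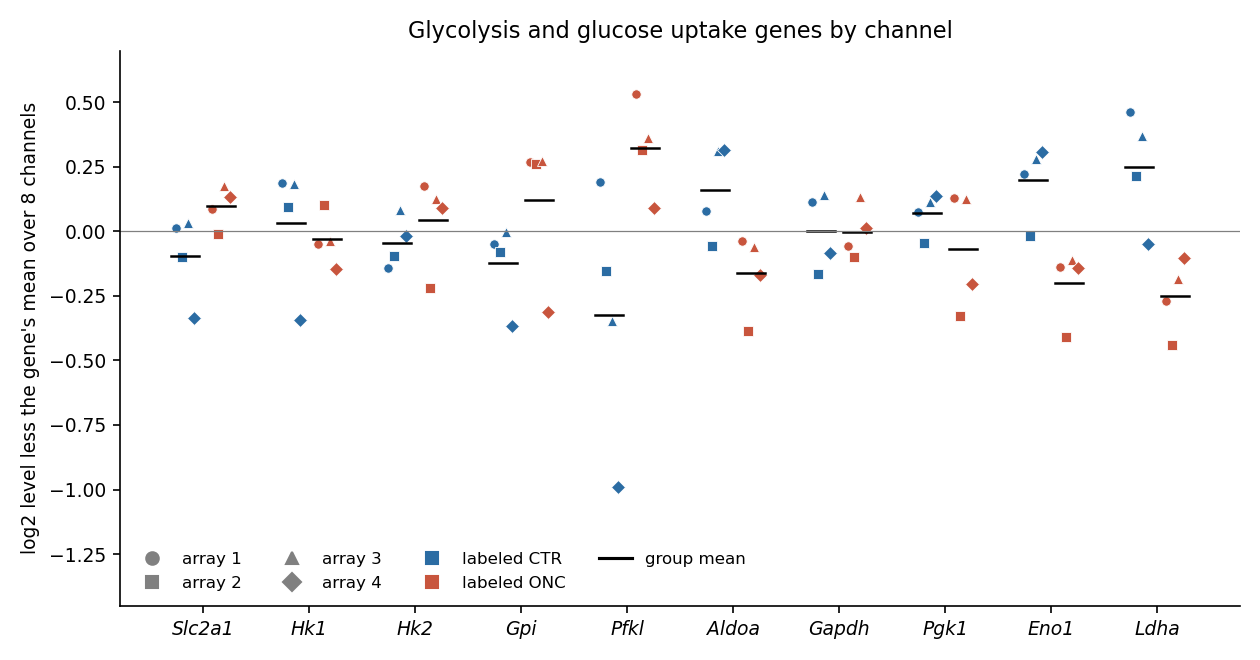
Log2 level of each of the 10 genes in each channel, less the gene's mean over the 8 channels (y axis), for channels labeled CTR (blue) and ONC (red), with a symbol for each array and a black line for the group mean. Only Eno1 and Ldha separate without overlap, both lower in ONC, and Pfkl in CTR4 lies furthest from its gene's mean.

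Levels are log2 signals less the median of the channel and say nothing about 1 gene against another. Slc2a1, the main glucose transporter of the blood-retina barrier, of photoreceptors and of Müller cells, was at 4.22, 4.10, 4.24 and 3.87 in CTR1 to CTR4 and at 4.29, 4.19, 4.38 and 4.34 in ONC1 to ONC4. CTR4 was the lowest channel, and CTR1 and CTR3 lay within the ONC range, so the groups overlapped. The difference of 0.19 ± 0.10 (SE, n = 4 per group) was above 0 on all 4 arrays after loess, yet 0.47 on array 4 against 0.074 to 0.14 on the others, and limma gave an adjusted p of 0.355. Without CTR4 it was 0.11, and without loess 0.052. Before loess, Cy5 over Cy3 less the array's median was on the CTR side on arrays 1 to 3 and on the ONC side on array 4. Slc2a1 is printed as 10 spots of 1 probe, of which 8 were kept, and this shows the error of a single spot. The SD between its spots within a channel ran from 0.11 to 0.36, against an SD between channels of 0.17 (CTR) and 0.080 (ONC). Taken spot by spot, the difference ran from 0.018 to 0.39.

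The hexokinases differed by less than the spread between retinas. Hk1, the isozyme of most neurons, was at 4.71, 4.62, 4.70 and 4.18 in CTR1 to CTR4 and at 4.47, 4.62, 4.48 and 4.38 in ONC1 to ONC4. The groups overlapped, with CTR4 below all other channels, and the difference was -0.062 ± 0.13 (SE, n = 4 per group; adjusted p = 0.851, limma). Hk2, the isozyme known in photoreceptors, was at 0.56, 0.61, 0.78 and 0.68 in CTR and at 0.88, 0.48, 0.83 and 0.79 in ONC. ONC2 was the lowest of all 8 channels while the other 3 ONC channels were the highest, and the difference was 0.087 ± 0.11 (adjusted p = 0.721, limma). Its 95% interval was -0.15 to 0.33, and that of Hk1 was -0.36 to 0.23. Both are intervals between labels after loess. They do not bound a difference by nerve crush, since dye and label coincide. With a channel left out, the difference of Hk1 ran from -0.19 to -0.0099 (-0.23 without loess) and that of Hk2 from 0.043 to 0.17.

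Gpi, whose enzyme turns glucose 6-phosphate into fructose 6-phosphate, was at 4.93, 4.90, 4.98 and 4.61 in CTR1 to CTR4 and at 5.25, 5.24, 5.25 and 4.67 in ONC1 to ONC4. ONC1 to ONC3 lay together above every CTR channel, and ONC4 was among the lowest beside CTR4, which shares its array in the labels. The difference of 0.25 ± 0.15 (SE, n = 4 per group) was above 0 on all 4 arrays after loess and did not pass the test (adjusted p = 0.429, limma). Without ONC4 it was 0.39, and without loess 0.024. Before loess, Cy5 over Cy3 less the array's median was on the ONC side on arrays 1 and 2 and on the CTR side on arrays 3 and 4.

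Pfkl encodes the liver type of phosphofructokinase, the enzyme of the main controlled step of glycolysis. It was at 1.36, 1.02, 0.82 and 0.18 in CTR1 to CTR4 and at 1.70, 1.49, 1.53 and 1.26 in ONC1 to ONC4. CTR4 was far below the rest, and the groups overlapped only through CTR1 and ONC4. The difference was 0.65 ± 0.23 (SE, n = 4 per group), or 1.57-fold, and was above 0 on all 4 arrays, from 0.34 on array 1 to 1.08 on array 4. It did not pass without a block (adjusted p = 0.174, limma) and passed with the array as a block (adjusted p = 0.0412), over a range of 0.0412 to 0.437 among the alternatives. Without CTR4 the difference was 0.43.

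The 2 Pfkl probes are neighbors on chromosome 20 and had the same sign on all 4 arrays. A_64_P163511 was at 0.89, 0.53, 0.34 and -0.07 in CTR1 to CTR4 and at 1.37, 1.22, 1.33 and 1.01 in ONC1 to ONC4, without overlap between the groups. A_64_P163510 was at 1.84, 1.51, 1.31 and 0.44 in CTR and at 2.03, 1.75, 1.73 and 1.52 in ONC, where CTR1 lay among the ONC channels. Their differences were 0.81 ± 0.19 (adjusted p = 0.0785, with the block 0.0302) and 0.49 ± 0.27 (adjusted p = 0.374, with the block 0.0965; limma over all probes). Pfkl had the largest SD over the 8 channels of the 10 genes (0.49). Among the genes named here, the pattern of Hif1a lay closest to it, with a root mean square difference of 0.16 over the 8 channels, followed by Pygm (0.30) and Gpi (0.32). The pathway genes were named for large differences in these same channels, so some likeness was built in by the choice. Genes not named here were not compared, and a link between Pfkl and Hif1a was not tested.

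Aldoa, the aldolase of muscle and brain that splits fructose 1,6-bisphosphate, was at 5.71, 5.58, 5.95 and 5.95 in CTR1 to CTR4 and at 5.60, 5.25, 5.57 and 5.47 in ONC1 to ONC4. CTR2 and ONC1 overlapped, and the other CTR channels lay above all ONC channels. The difference of -0.32 ± 0.12 (SE, n = 4 per group) was below 0 on all 4 arrays, from -0.12 to -0.48, with an adjusted p of 0.194 (limma). The 3 measured entries of 4 described as similar to aldolase A had differences of the other sign, 0.15 to 0.23, and limma called 0 of them, with 0 at an unadjusted p under 0.05.

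Gapdh, the dehydrogenase of triose phosphate that is often used as a reference gene, was at 6.72, 6.44, 6.75 and 6.52 in CTR1 to CTR4 and at 6.55, 6.51, 6.74 and 6.62 in ONC1 to ONC4. The groups overlapped throughout. The difference was -0.0040 ± 0.10 (SE, n = 4 per group; adjusted p = 0.988, limma), with a 95% interval of -0.23 to 0.22. It was 0.041 with the scanner software's processed signals and -0.40 without loess, so Gapdh gives no direction here. That mean hides 3 probes with different signs. A_64_P003046 gave 0.18 ± 0.13, A_64_P052510 gave -0.017 ± 0.098 and A_64_P232432 gave -0.18 ± 0.10, of which only the last had the same sign on all 4 arrays. None was called (adjusted p = 0.486, 0.949 and 0.388, limma over all probes).

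Probes that share bases with those of Gapdh differed by which one they share them with. Of 24 measured probes with a run in common with A_64_P232432, 22 were lower in ONC, with a median of -0.17. Of 33 measured probes sharing one with A_64_P052510, 23 were higher, with a median of 0.038 (own difference -0.017), and the 2 sharing one with A_64_P003046 were at 0.17 and 0.20. These probes are not independent of each other, since each shares bases with a Gapdh probe. Over all 67 measured of the 72 entries described as similar to Gapdh, the difference ran from -0.45 to 0.37, with a median of -0.092, 48 below 0 and 19 above. Limma called 0 of them (5 with the array as a block, beside 7.69% of all genes, each of the 5 lower in ONC), and 15 were at an unadjusted p under 0.05, beside 18.6% of all genes.

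Pgk1, whose enzyme is the first of glycolysis to make ATP, lay between 6.88 and 7.06 in CTR and was at 7.06, 6.60, 7.05 and 6.72 in ONC1 to ONC4. ONC1 and ONC3 were level with CTR, and ONC2 and ONC4 were the lowest channels. The difference was -0.14 ± 0.12 (SE, n = 4 per group; adjusted p = 0.589, limma), below 0 on 2 of 4 arrays and -0.053 without ONC2.

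Eno1, enolase of non-neuronal type, was at 5.59, 5.35, 5.65 and 5.68 in CTR1 to CTR4 and at 5.23, 4.96, 5.26 and 5.23 in ONC1 to ONC4. Every ONC channel lay below every CTR channel, and channel number 2 was the lowest of each group. The difference of -0.40 ± 0.11 (SE, n = 4 per group), or 1.32-fold lower in ONC, was close to the same on each array, -0.36, -0.39, -0.39 and -0.45. It did not pass without a block (adjusted p = 0.103, limma) and passed with the array as a block (adjusted p = 0.0318), over a range of 0.00915 to 0.523 among the alternatives.

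The 3 Eno1 probes differed. A_64_P039081, placed on chromosome 3, was at 7.36, 6.92, 7.20 and 7.23 in CTR1 to CTR4 and at 6.68, 6.45, 6.62 and 6.70 in ONC1 to ONC4. A_64_P067525, placed on chromosome 10, was at 2.69, 2.59, 3.03 and 3.12 in CTR and at 2.35, 1.91, 2.40 and 2.42 in ONC. Both separated the groups without overlap, by -0.57 ± 0.11 (adjusted p = 0.0588, with the block 0.0294) and -0.59 ± 0.16 (adjusted p = 0.0985, with the block 0.0302; limma over all probes). A_64_P093037, the probe on chromosome 5 where RefSeq has Eno1, was at 6.74, 6.55, 6.73 and 6.69 in CTR and at 6.67, 6.52, 6.76 and 6.58 in ONC. Its groups overlapped almost fully, with a difference of -0.041 ± 0.088 (adjusted p = 0.856, limma over all probes) and a 95% interval of -0.24 to 0.16. The gene's value is the mean of the 3, and its difference came from the 2 probes placed on other chromosomes. What these probes take up was not tested. Of 2 other entries described as enolase 1, ENSRNOT00000012706 was at -0.69 ± 0.21 (adjusted p = 0.127, with the block 0.0290) and ENSRNOT00000002064 at 0.072 ± 0.44.

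**Figure D2:**
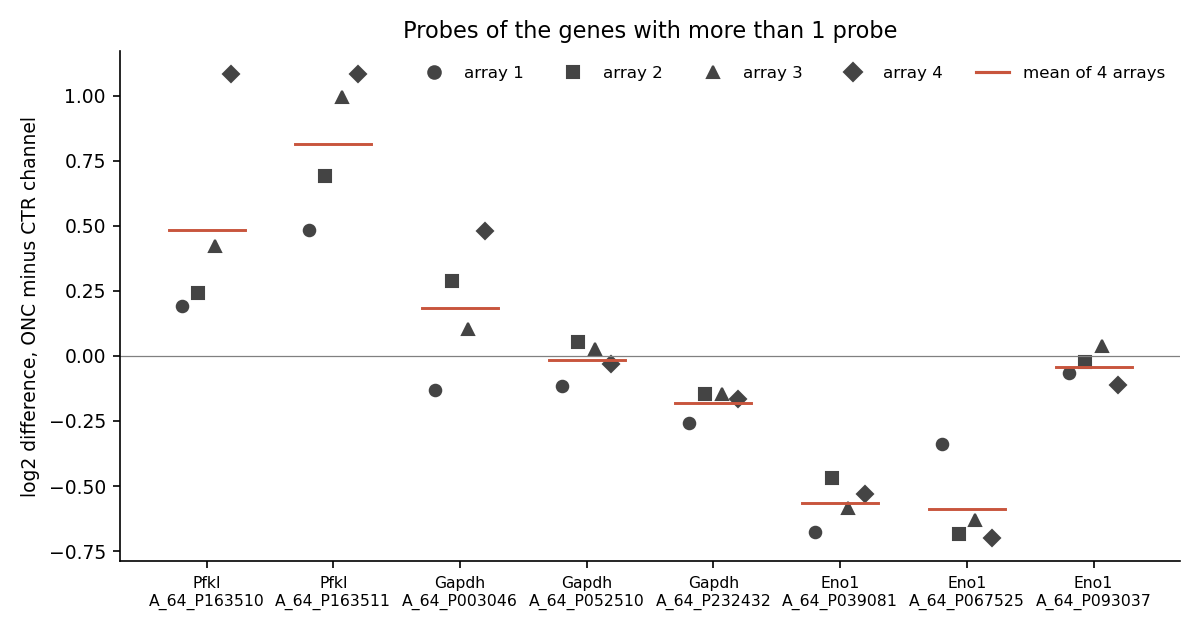
Log2 difference between the ONC and the CTR channel of each array (y axis) for the probes of Pfkl, Gapdh and Eno1, with a symbol for each array and a red line for their mean. The Eno1 probe A_64_P093037 sits near 0 while the other Eno1 probes average -0.57 and -0.59.

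Ldha, the subunit of lactate dehydrogenase that favors lactate, was at 7.59, 7.34, 7.49 and 7.08 in CTR1 to CTR4 and at 6.86, 6.68, 6.94 and 7.02 in ONC1 to ONC4. All ONC channels lay below all CTR channels, by a narrow margin between CTR4 and ONC4. The difference of -0.50 ± 0.13 (SE, n = 4 per group), or 1.41-fold lower in ONC, was -0.73, -0.66 and -0.55 on arrays 1 to 3 and -0.051 on array 4. Its adjusted p was 0.0930 (0.0595 with the array as a block, over a range of 0.00839 to 0.462 among the alternatives, limma), the lowest of the 10 genes without a block. The entry RGD1562690, whose probe shares most of its bases with that of Ldha, was singled out after its values were seen. It was at 7.18, 7.05, 7.30 and 7.26 in CTR1 to CTR4 and at 6.52, 6.48, 6.65 and 6.67 in ONC1 to ONC4, and it was called (-0.62 ± 0.089, adjusted p = 0.0438, limma). Whether both probes take up the same transcripts was not tested. The 3 other measured entries described as similar to lactate dehydrogenase A were at -0.017 to 0.026. Closest to the pattern of Ldha among the genes named here were Nxnl1, Dkk3 and Eno1 (root mean square difference 0.15, 0.18 and 0.18 over 8 channels), and closest to that of Gpi were Pcp2, Slc16a7 and Pygm (0.16, 0.19 and 0.19). The limit given for the pattern of Pfkl holds for both.

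The size of the differences, and which genes were called, depended on the normalization within the array, while each of the 10 genes kept its sign against 0 without loess. Against the median of all genes without loess (0.073), Slc2a1 (0.052), Hk2 (0.070) and Gpi (0.024) were lower. Before loess, the log2 ratio of Cy5 over Cy3, the dyes that the labels give CTR and ONC, had a median over all genes of 0.49, 0.31, 0.41 and 1.18 on arrays 1 to 4. For Ldha it was 1.69, 1.48, 1.53 and 1.79, above the array's median on every array, and for Pfkl it was 0.23, -0.09, -0.23 and 0.23, below it on every array. By brightness of the spots, which is no measure of transcripts, 8 of the 10 genes lay above the 90th percentile, and all but Hk2 and Pfkl were among them. The 1631 genes of that range had a median difference of -0.20 without loess and 0.0026 with it, so bright genes as a class were shifted before loess. Without loess, limma called 5 of the 10 genes, all lower in ONC, beside 19.6% of all genes: Aldoa (-0.62), Gapdh (-0.40), Pgk1 (-0.58), Eno1 (-0.70) and Ldha (-0.96). The median over the 10 genes was then -0.32, against -0.033 with loess, and over all genes 0.073. How much of this is dye and how much is condition cannot be told apart.

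**Figure D3:**
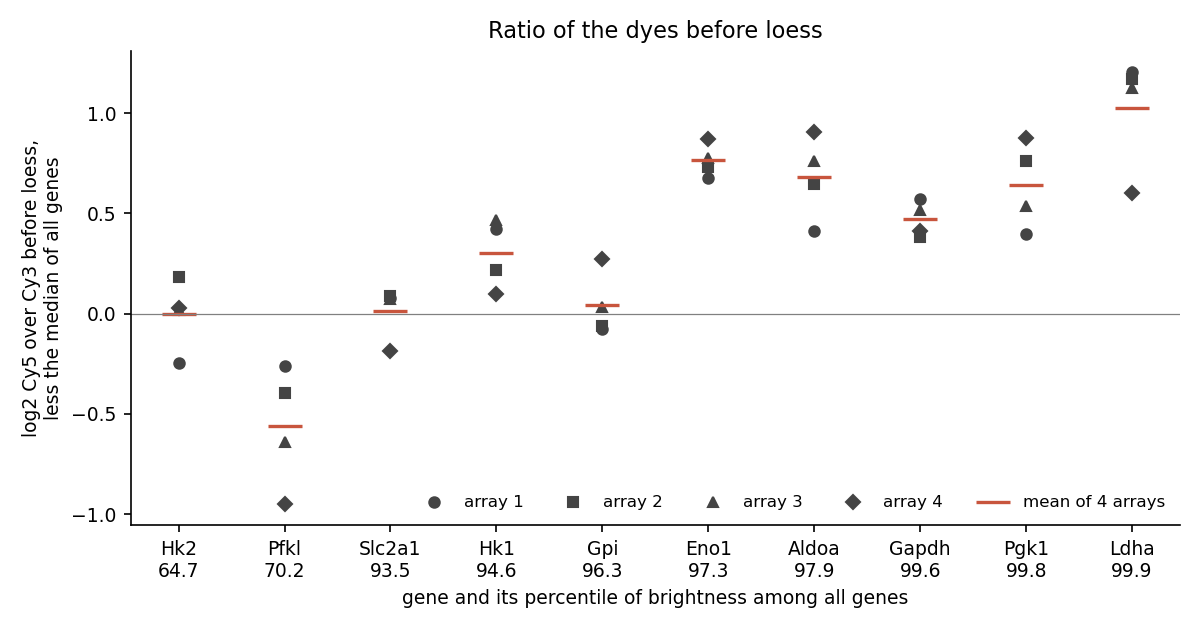
Log2 ratio of Cy5 over Cy3 before loess, less the median of all genes on the array (y axis), for the 10 genes in order of their percentile of brightness (x axis), with a symbol for each array and a red line for the mean. Hk1, Eno1, Aldoa, Gapdh, Pgk1 and Ldha lie above 0 on all 4 arrays and Pfkl lies below 0 on all 4.

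**Figure D4:**
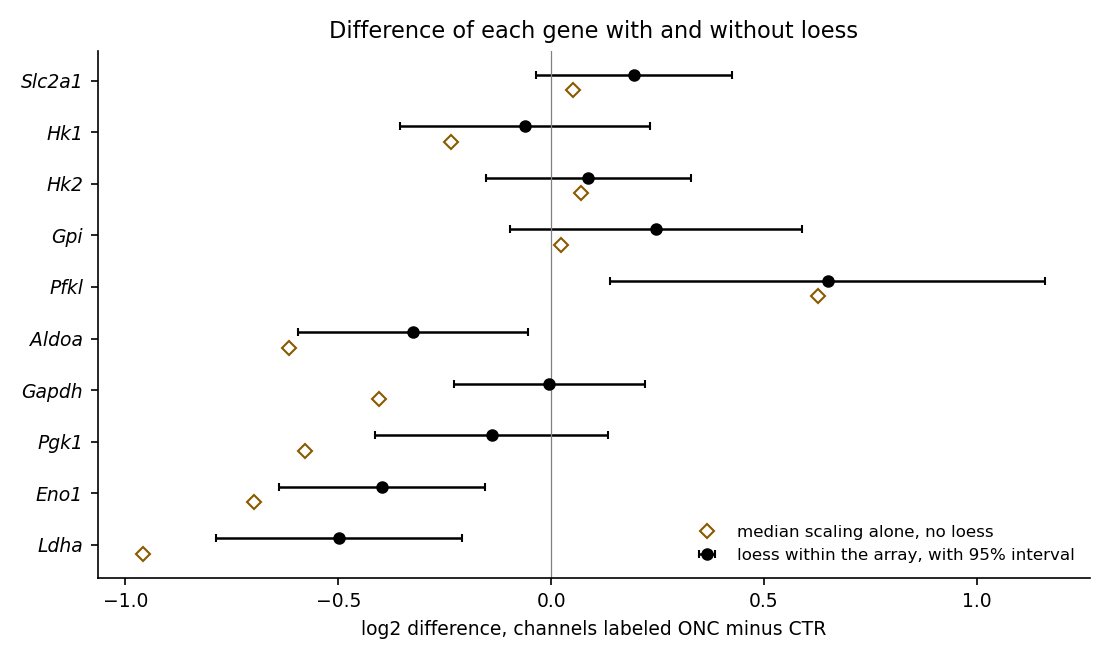
Log2 difference of each gene (x axis, ONC minus CTR), with loess and its 95% interval (black points and bars) and with median scaling alone (open symbols). Every gene has a lower value without loess, by the largest step for Ldha, Pgk1 and Gapdh, and the intervals of Pfkl, Aldoa, Eno1 and Ldha leave out 0.

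Around the 10 genes, 83 others of glucose metabolism in 6 lists were looked at, of which 78 were on the array and 65 were measured. Limma called 0 of the 65, with 15 at an unadjusted p under 0.05 (beside 18.6% of all genes), 27 higher and 38 lower in ONC and a median difference of -0.067 (beside -0.013 over all genes). A block for the array brought 4 calls, beside 7.69% of all genes, namely Ankrd37 (higher) and Pdhb, Txnip and Vhl (lower). Txnip and Vhl were named after their values had been seen. The groups did not overlap for 8 of the 65, against 12.7% of all genes.

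Of the carriers of glucose and monocarboxylates, 8 of 10 were measured, 4 higher and 4 lower, with a median of 0.070. Slc2a8, a transporter held mostly inside cells, was at -0.83, -0.981, -0.66 and -0.47 in CTR and at -0.985, -1.81, -1.10 and -1.23 in ONC. The groups did not overlap, by a very narrow margin between CTR2 and ONC1, and differed by -0.55 ± 0.19 (adjusted p = 0.169, limma). Slc16a7, the monocarboxylate transporter of neurons, differed by 0.24 ± 0.099 (adjusted p = 0.240, limma), or 0.77 without loess, where it was called (adjusted p = 0.00900, over a range of 0.00900 to 0.648 among the alternatives). Its spots were dim, at percentile 10.0 of brightness. Without loess, limma called 19.6% of all genes, 2267 higher and 927 lower. In the list of other isozymes and steps of glycolysis (13 of 19 measured, 5 higher and 8 lower, median -0.070), Eno2, the enolase of neurons, was at 0.35 ± 0.12 (adjusted p = 0.177, limma). Eno2 lay between 3.31 and 3.38 in all CTR channels and at 3.89, 3.36, 3.87 and 3.62 in ONC1 to ONC4, so only ONC2 overlapped. Without loess its difference was 0.21. The RGC markers, which ONC2 had as high as ONC1 and ONC3, were higher by 1.38 in ONC, and their part in the difference of Eno2 was not tested.

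Of the regulators of glycolytic flux, 11 of 15 were measured, 3 higher and 8 lower, with a median of -0.087. Pfkfb2, which makes the activator of phosphofructokinase, differed by -0.49 ± 0.30 (adjusted p = 0.435, limma), with ONC4 at -4.01 and all other channels between -2.78 and -2.20, and by -0.15 without ONC4. With the outlier flags of the spots alone it differed by -0.032, and without loess by -0.11. Nxnl1, the gene of rod-derived cone viability factor, which is known to further glucose uptake by cones, was at 0.76, 0.69, 0.93 and 0.59 in CTR and at 0.46, -0.09, 0.46 and 0.56 in ONC. The groups did not overlap, and the difference was -0.39 ± 0.15 (adjusted p = 0.208, limma), or -0.25 without ONC2. Txnip, an inhibitor of glucose uptake, differed by -0.36 ± 0.11 (adjusted p = 0.149, with the block 0.0378, limma), or -0.16 without loess (adjusted p = 0.366).

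Among pyruvate dehydrogenase and shuttle genes, 9 of 10 were measured, 5 higher and 4 lower, with a median of 0.038. Pdhb, the beta subunit of the first enzyme of the complex that takes pyruvate into the citrate cycle, was at 2.71, 2.82, 2.69 and 2.74 in CTR and at 2.39, 2.43, 2.45 and 2.45 in ONC. The spread within each group was small, the groups did not overlap, and the difference was -0.31 ± 0.072 (adjusted p = 0.0807, with the block 0.0435 and a range of 0.0134 to 0.412 among the alternatives, limma). Pdhx, of the same complex, differed by -0.17 ± 0.11 (adjusted p = 0.434, limma), or -0.091 without ONC4. Of the 14 pentose phosphate and glycogen genes 13 were measured, 4 higher and 9 lower, with a median of -0.067, and the largest differences were those of Pgls (-0.38 ± 0.32, adjusted p = 0.579, and -0.16 to -0.69 with a channel left out) and Pygm (0.30 ± 0.11, adjusted p = 0.189, limma). Without loess Pygm was at 0.50 and was called, beside 19.6% of all genes (adjusted p = 0.0253, limma, over a range of 0.0253 to 0.4997 among the alternatives).

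The hypoxia-inducible factors and further targets (11 of 15 measured, 6 higher and 5 lower, median 0.030) included Hif1a and Ankrd37. Hif1a, the factor's oxygen-regulated subunit, was at 1.90, 1.63, 0.91 and 0.68 in CTR and at 1.98, 2.03, 1.94 and 1.70 in ONC. The ONC channels lay close together and CTR3 and CTR4 were far below, with a difference of 0.63 ± 0.25 (adjusted p = 0.230, limma). Ankrd37, a target gene, was at 0.91, 1.21, 1.13 and 1.05 in CTR and at 1.59, 1.59, 1.73 and 1.46 in ONC, without overlap. It differed by 0.52 ± 0.096 (adjusted p = 0.0575, with the block 0.0311 and a range of 0.0137 to 0.384 among the alternatives, limma). The methods' t-test joined to their fold threshold was met by Ankrd37 and Pdhb, 2 of the 65 pathway genes, beside 510 of all 16307 genes. None of the 10 genes met it. Vhl, whose product marks the factor for breakdown, differed by -0.39 ± 0.14 (adjusted p = 0.188, with the block 0.0457, limma).

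**Figure D5:**
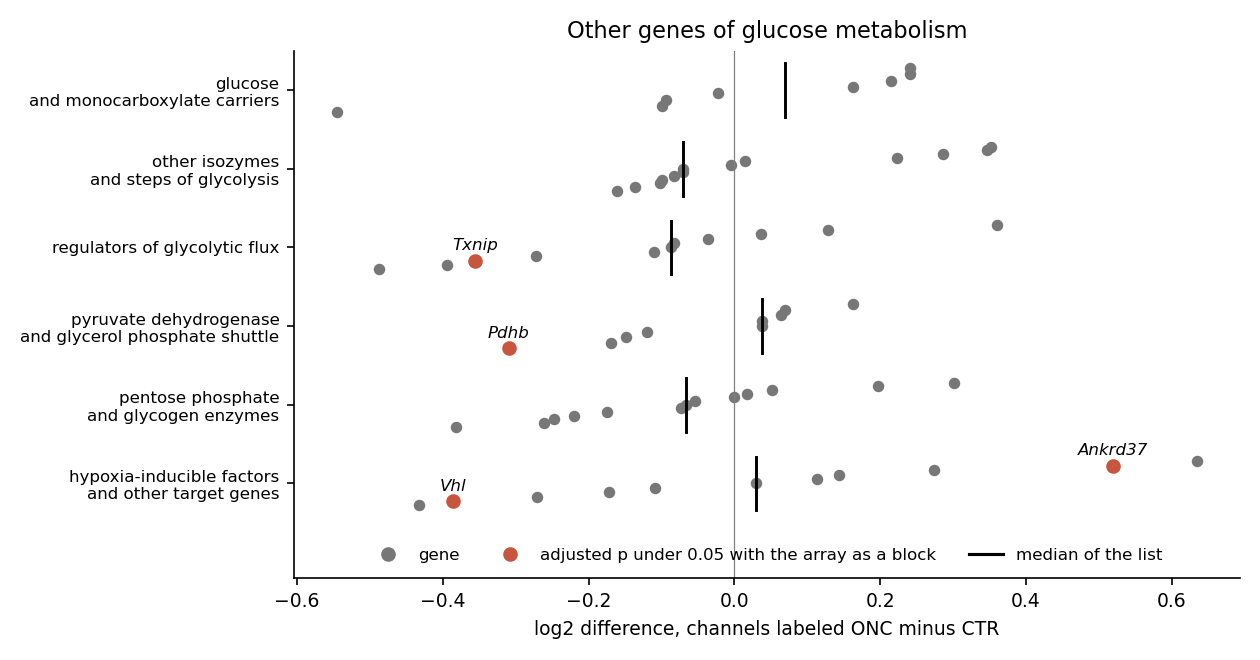
Log2 difference (x axis, ONC minus CTR) of the 65 measured genes in the 6 lists (y axis, 1 point a gene), with a black line at the median of each list. The 4 genes with an adjusted p under 0.05 in limma with the array as a block are in red and named, and the medians of the lists lie between -0.087 and 0.070.

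The core motif of these factors was searched for on both strands of the RefSeq promoters (GRCr8, 250 bases before to 50 after the start) as ACGTG and GCGTG, which have CGTG in common. Of 33469 promoters, 19.3% hold the first, 29.7% the second and 41.6% either. There were 13 promoters for 9 of the 10 genes (not for Pgk1), and 9 of the 13 held either motif. The promoter of Ldha (chr1:106507842-106508141, +), with 6 matches, and 1 of the 2 of Eno1 (chr5:166003111-166003410, +), with 2, are shown because these genes had the lowest adjusted p. Matches are counted on each strand, so the stretch CACGTG in the Ldha promoter, which reads the same on both, counts as 2. Matches are in capitals. A match describes letters in the window and is not a site.
Ldha promoter: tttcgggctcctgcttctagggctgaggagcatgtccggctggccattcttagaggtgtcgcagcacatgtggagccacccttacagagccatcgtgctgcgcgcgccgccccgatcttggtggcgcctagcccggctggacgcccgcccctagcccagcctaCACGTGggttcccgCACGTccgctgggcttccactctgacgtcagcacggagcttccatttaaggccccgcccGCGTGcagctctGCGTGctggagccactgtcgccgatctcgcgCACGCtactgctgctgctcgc
Eno1 promoter: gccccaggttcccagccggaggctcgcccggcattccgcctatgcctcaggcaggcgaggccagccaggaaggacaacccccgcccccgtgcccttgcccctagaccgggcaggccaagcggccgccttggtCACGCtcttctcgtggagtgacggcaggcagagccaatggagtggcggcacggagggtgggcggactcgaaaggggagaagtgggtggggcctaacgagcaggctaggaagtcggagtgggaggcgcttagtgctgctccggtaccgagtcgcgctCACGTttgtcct

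Markers of other retinal cells were set beside these values by their median per channel, as above for the RGC markers. The markers of Müller cells and astrocytes (8 of 9 measured, without Kcnj10, Dkk3 with the brightest spots) were at 0.029, -0.0058, 0.24 and 0.28 in CTR1 to CTR4 and at -0.13, -0.31, -0.12 and 0.021 in ONC1 to ONC4, a difference of -0.27. Rod markers (8 of 10, without Rcvrn and Nr2e3) lay between -0.21 and 0.15 in all channels and cone markers (7 of 7, Pde6h brightest) between -0.18 and 0.25, and both overlapped between the groups. Bipolar cell markers (7 of 7, Pcp2 brightest) differed by 0.24. Only Isl1 of this list, chosen after its value was seen, was called, at 0.64 ± 0.081 (adjusted p = 0.0418, limma). The RGC markers differed by 1.38 in the same direction, and which cells the Isl1 signal came from was not tested. Microglia markers (10 of 10, C1qb brightest) were at 0.17, -0.37, 0.44 and 0.56 in CTR1 to CTR4 and at -0.34, -0.11, -0.34 and -0.033 in ONC1 to ONC4, a difference of -0.41, with CTR2 the lowest of all 8 channels. Amacrine and horizontal cell markers (9 of 9, Calb2 brightest) lay between -0.15 and 0.18, with overlap. The part of any of these in the differences of the 10 genes was not tested.

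Tissues next to the retina were followed the same way. Lens markers (8 of 9, without Crygd, Crygs brightest) were at 1.23 in CTR2 and between -0.64 and 0.37 in the other channels of both groups. The lowest and highest channels were CTR2 at -0.33 and ONC4 at 0.21 for endothelial markers (7 of 8, Kdr brightest) and ONC2 at -0.73 and ONC1 at 0.45 for pigment epithelium markers (5 of 8, Otx2). They were CTR2 at -0.63 and ONC1 at 0.47 for red cell markers (3 of 5, Hba1) and CTR2 at -0.23 and CTR4 at 0.20 for skeletal muscle markers (5 of 8, Mb), and the groups overlapped in all 4 lists. Those not measured included Tek, Best1, Tyr, Rdh5, Slc4a1, Myh2, Myh4 and Tnnt3. CTR2, rich in both lens and RGC markers, and ONC4, poor in RGC markers, stand apart from the rest of their label. Without both, limma called 0 of the 10 genes, with 5 at an unadjusted p under 0.05, beside 3888 of 16307 genes at that p and 415 called in all.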

How the data were processed

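The authors deposited spot intensity values of 4 arrays as written by the scanner software, namely the mean foreground and median background of each channel, not corrected, and a processed signal that, per the file headers, was background-subtracted and dye-normalized by LOWESS. The file headers name Feature Extraction 12.0.3.1, and the submitters' processing notes 11.1.19.1. Values of the in-house normalization of the methods were not analyzed here.

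Each array has 44254 spots, 1377 of them controls. Controls, spots with any of 3 outlier flags (non-uniform or population outlier of the spot, non-uniform background) and spots whose foreground did not reach 2 times background in all 8 channels were removed, keeping 27371 spots, 18599 probes and 16307 genes. The set of flags was settled after several sets had been tried and their counts of spots and calls seen, and was taken because it alone returned the counts of an earlier processing of these files. Of the other sets, 2 stand among the alternatives. Background was subtracted, each array normalized by loess (span 0.3), each channel centered on its median, and log2 values averaged over the spots for each probe, then over the probes for each gene.

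The comparison of ONC and CTR used limma 3.58.1 (R 4.3.3; two-sided, Benjamini-Hochberg over all genes or probes, calls under 0.05) and had no block, since the test of the methods is unpaired. Standard errors are those of limma, and all adjusted p values are from it. Same-numbered CTR and ONC channels share an array in the labels, and their deviations from the group means correlated at 0.149, 0.549, 0.401 and 0.487 over genes on arrays 1 to 4. Pairs of different number ran from -0.512 to 0.171, and CTR1 with ONC2 (0.171) was above the pair of array 1. The array was also fitted as a block. The methods' t-test was joined to their fold threshold for each spot, after a first computation for each probe had been seen. The fit was tested on simulated data. Tables and figures used Python 3.11.15 with pandas 2.3.3, scipy 1.17.1 and matplotlib 3.10.9.

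Median foreground by array was 468.2, 626.0, 446.6 and 468.1 for CTR, over backgrounds of 55.0 to 56.5, and 337.3, 494.7, 331.9 and 218.1 for ONC, over backgrounds of 26.0 to 29.5. No spot of the 10 genes was saturated, and their lowest foreground over background was 24.8. The number of arrays limits the precision.

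The members and lists were chosen with earlier results of these data known, so no test was made over the 10 genes or a list. Named were all 10 genes, of each pathway list every called gene and at most 2 with the largest absolute difference, for the 3 of the 10 genes that varied most the 3 closest named genes, and entries described by the enzyme name of a member. The 12 marker lists are of RGCs, rods, cones, bipolar, amacrine and horizontal, Müller and astrocyte, microglia, endothelial, pigment epithelium, red, lens and skeletal muscle cells. Alternatives changed the block, background correction, normalization, dim filter, summary of probes, test and channels, and, added after the data were seen, left out CTR2 and ONC4 or changed the outlier flags.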

Additional observations from a re-analysis of the deposited data

Results flagged for a closer look

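In 44 comparisons of 4 channels (22 genes in 2 groups), 4 had a channel whose gap to its nearest neighbor took up more of the group's range than Dixon's 95% critical value allows, where chance gives about 1 in 20. For Gpi, ONC4 was at 4.67 while ONC1 to ONC3 were at 5.24 to 5.25 (ratio of gap to range 0.980). Slc16a7 was at -3.21 in ONC4 against -3.08 to -3.06 in the others (ratio 0.903). Eno1 was at 4.96 in ONC2 against 5.23 to 5.26 (ratio 0.896), and Nxnl1 at -0.09 in ONC2 against 0.46 to 0.56 (ratio 0.842). ONC4 had the lowest median foreground of the 8 channels and low RGC markers, and their part in these values was not tested.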

How the results depend on the processing

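Of the 10 genes, limma called 0, and 2 with the array as a block (Pfkl and Eno1), 5 without loess and 1 with Aquantile between arrays (Eno1, adjusted p = 0.0388, range 0.00915 to 0.523), while the methods' t-test had 4 before and 0 after adjustment. The block changed no other call among the 10. The other alternatives gave 0, with 2 to 5 at an unadjusted p under 0.05. Over all genes the count of 81 became 1254 with the block, 3194 without loess (2267 higher and 927 lower, against 38 and 43), 412 with Aquantile, 21 with processed signals, 123 with the filter by well above background, 124 with the brightest probe, 0 with normexp (2768 at an unadjusted p under 0.05, and 0 and 2338 without the dim filter) and 0 in the 4 channels with the same dye in labels and methods (1961). The methods' t-test had 2682 genes before and 0 after adjustment, and 510 with the fold threshold. Of the pathway genes, 0 were called, and 4 with the block, 12 without loess, 2 with Aquantile, 1 with the filter by well above background, 14 by the methods' t-test unadjusted and 2 with the fold threshold. Chosen after seeing the data, leaving out CTR2 and ONC4 gave 415 genes and 2 pathway genes. The flags of the spots alone gave 80 genes, and adding the population flag of the background gave 113 and lost 4 of the 10 genes (Gpi, Aldoa, Pgk1 and Ldha) with a median of 0.081 over the other 6.

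Without each replicate in turn, limma called 0 of the 10 genes, 0 pathway genes and 0 to 38 genes in all, with 38 without ONC2 and 0 (limma, 2085 to 3252 at an unadjusted p under 0.05) without any other channel, and the median over the 10 genes ran from -0.075 to 0.015. That median was -0.32 without loess and 0.12 in the 4 channels, where Hk1 (0.081), Gapdh (0.16), Pgk1 (0.081) and Pgls (0.057) changed sign. Gapdh also changed sign with processed signals (0.041), the filter by well above background (0.0015), the added background flag (0.080) and with a channel left out (-0.059 to 0.042). Of the values of the 10 genes under alternatives, 188 kept their sign and side of the threshold, 8 passed it only in the alternative and 10 changed sign. The cause of these changes was not tested. The lowest foreground over background of the 10 genes was 24.8, and the part of signal strength in these changes was not tested.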
